A study of Mus musculus with 6 samples.

Results

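Proteins that enter the secretory pathway receive a preassembled sugar tree on asparagine residues, and the genes that build, transfer and trim that tree were followed here in mouse embryonic fibroblasts (MEF) that lack the deglycosylating enzyme NGLY1. A list of 47 genes was used, matched by symbol in the deposited read count table of 23842 genes. The list covers the supply of sugars and dolichol carriers, the stepwise assembly of the oligosaccharide, its transfer to protein, and its trimming and branching. All 47 genes were present, and all 47 passed the filter on low counts, which left 15039 genes to test.

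The tree is built on the lipid dolichol in the membrane of the endoplasmic reticulum (ER). Assembly starts on the cytosolic face, the intermediate is flipped, and mannose and glucose are then added in the lumen from dolichol-linked donors. The oligosaccharyltransferase moves the finished glycan to the nascent protein, glucosidases and mannosidases trim it, and Golgi enzymes branch and cap it. NGLY1 acts at the other end of this pathway: it is the cytosolic enzyme that takes N-glycans off misfolded glycoproteins exported from the ER.

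The study compared 3 cultures labelled NGLY1-/- with 3 labelled wild type, all of them untreated MEF of the C57BL/6 strain, kept in serum-containing medium rich in glucose. Total RNA was read with a strand-specific kit. The labels do not say whether the cultures came from separate embryos or which stretch of Ngly1 was deleted, so p-values measure only the spread between these 6 libraries, which may be technical. In bulk RNA, fewer cells expressing a gene and less RNA per cell cannot be told apart.

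Library totals ranged from 27323577 to 37841558 counts, wild-type replicate 3 being the shallowest. Ngly1 itself was counted 668, 632 and 307 times in wild type and 618, 420 and 457 times in NGLY1-/- (adjusted p = 0.99), so the total over the gene did not separate the groups and does not check the labels. Ribosomal and other structural RNA genes took 6.23% to 6.49% of counts in wild type and 6.3%, 7.32% and 9.02% in the knockout. The 10 fibroblast markers summed to 7290 to 8160 CPM (counts scaled to a common library size by TMM) in wild type and to 10500 to 11700 CPM in the knockout. The sum was led by Fn1, which rose from 2090 ± 245 to 7150 ± 529 CPM; the other 9 markers summed to 5190 to 5820 CPM in wild type and 3630 to 4160 CPM in the knockout. Vim, Col1a2, Pdgfra, Pdgfrb and Thy1 fell, Dcn rose, Col1a1 and Col3a1 did not pass, and Lum had 0 to 1 counts in every library. The neural list (3 of 4 genes in the table) summed to 10.9 to 14.5 CPM in wild type and 33.7 to 41.0 CPM in the knockout, nearly all of it Tubb3, and the epithelial, endothelial and blood lists summed to 0.701 to 3.61 CPM in each library. Of the skeletal muscle list the table held Des alone, at 0.11 to 0.836 CPM in wild type and 3.24 to 3.78 CPM in the knockout. Wild-type replicate 3 lay farthest from the other wild-type libraries for 28 of the 47 genes, and knockout replicate 1 lay farthest within its group for 26. The part of these differences in the results was not tested.

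Every step but the ER lumen and glucose trimming had members called higher and members called lower, and the summed level of the pathway overlapped between the groups. In the ER lumen Alg9, and in glucose trimming Ganab and Prkcsh, lay lower in all 3 knockout libraries but missed the threshold. The 47 genes together held 4540 ± 24.3 CPM in wild type and 4610 ± 152 CPM in the knockout (SD, n = 3 each). By edgeR's quasi-likelihood test, adjusted over all genes tested at 0.05, 17 of the 47 rose (36.2%, against 30.7% of all genes tested), 14 fell (29.8%, against 30.2%) and 16 did not pass. The share called in either direction in the whole table was 60.9%, so the members' counts lay near the background. The 3 knockout libraries lay wholly above or below the 3 wild-type libraries for 39 members (83.0%, against 67.3%). Fold changes were smaller than elsewhere in the table: the median absolute log2 fold change was 0.39 for the members and 0.59 for all genes tested, and 4 members (8.51%) changed at least 2-fold, against 28.5% of all genes. These were Alg8, Alg13, Alg5 and Man1a2. All 47 members averaged at least 10 CPM over both groups, whereas the genes tested included ones far below that level. The comparisons with all genes tested were not matched for level, and the part of level in them was not tested. The median log2 fold change was 0.04 over the members and -0.04 over all genes. With library totals in place of TMM the split became 13 higher and 18 lower (against 26% and 35.4% of all genes tested, 61.4% in either direction), since that scaling moved the median of all genes by -0.12 and took the share of all calls that were higher from 50.4% to 42.4%.

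**Figure D1:**
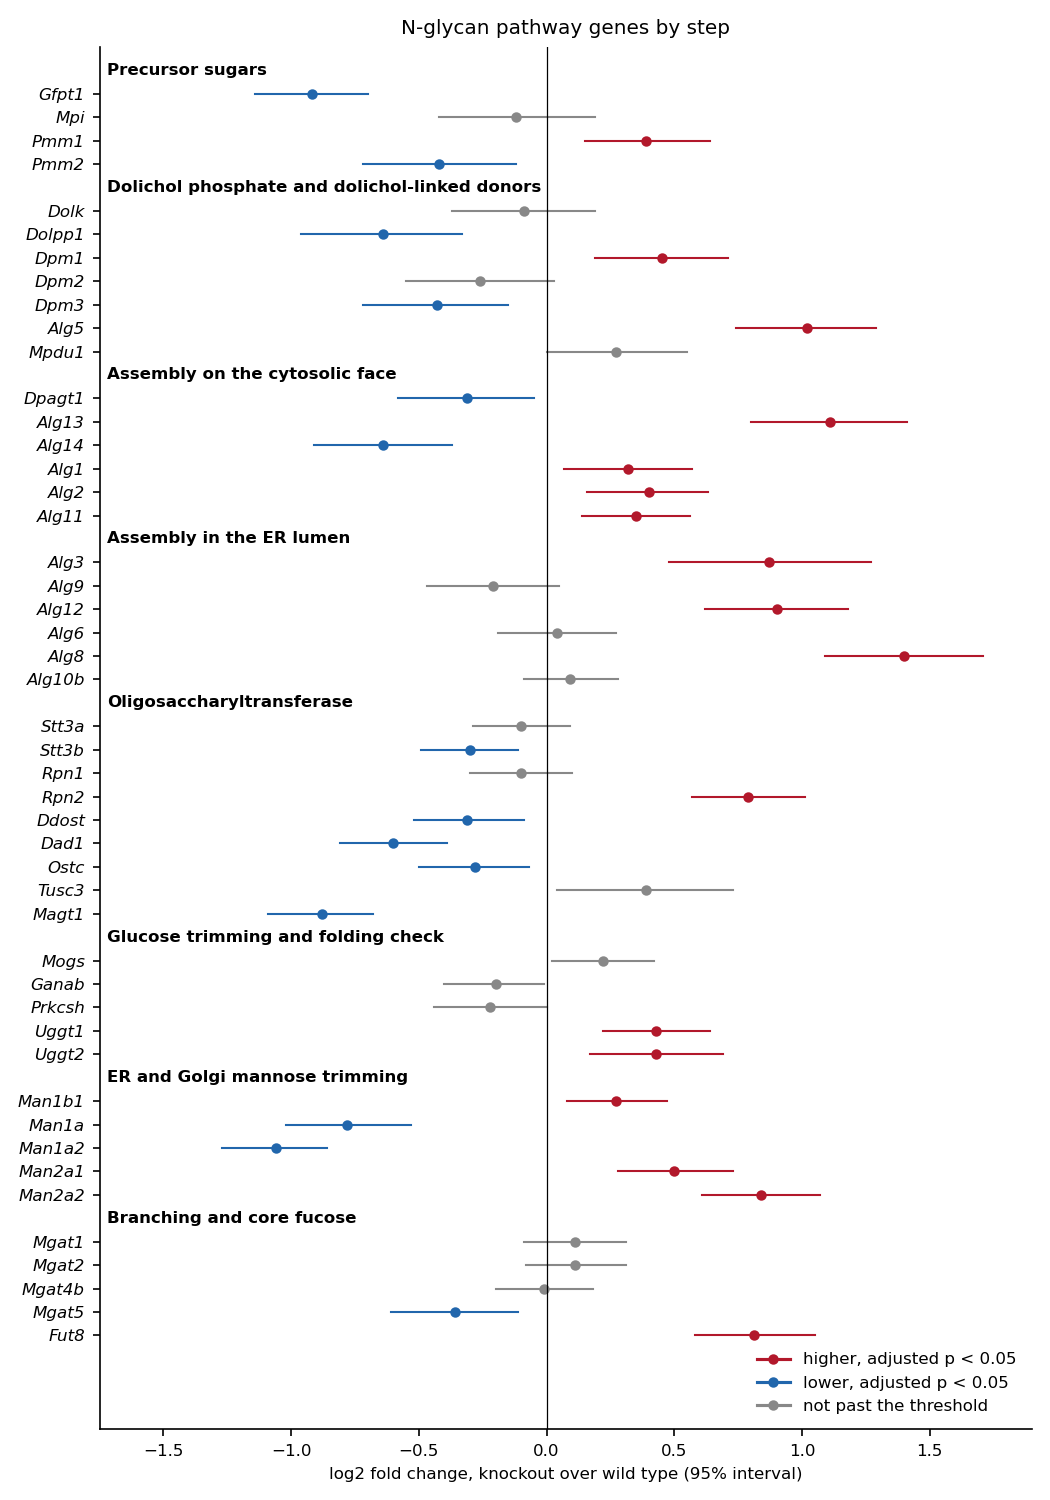
Log2 fold change of each of the 47 genes (NGLY1 knockout over wild type, 3 libraries each) with its 95% interval from edgeR, not adjusted for multiple tests, grouped by step of the pathway; red and blue mark genes past an adjusted p of 0.05. Every step but the ER lumen and the glucose trimming group has red and blue genes side by side; over all steps values run from 1.40 for Alg8 to -1.06 for Man1a2.

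Precursor sugars. Gfpt1, which makes glucosamine 6-phosphate and sets the flow into the hexosamine pathway, fell, while the phosphomannomutase genes moved in opposite directions. Of the 4 genes, 1 rose and 2 fell, where 30.7% of all genes tested rose and 30.2% fell. Their summed level went from 231 ± 12.3 to 173 ± 9.79 CPM. That fall was carried by Gfpt1, at 128 ± 5.89 CPM in wild type and 68.0 ± 6.66 CPM in the knockout. Gfpt1 (gene 14583, chromosome 6, 87042846 to 87092207) was read at 126, 135 and 124 CPM in wild type and 64.1, 64.3 and 75.7 CPM in the knockout. Its groups did not overlap, and every knockout library lay well under the lowest wild-type library. The fall was 0.92 on the log2 scale (a log2 fold change of -0.92, SE 0.098, 1.89-fold, adjusted p = 2.93e-05, edgeR). Pmm1 rose 1.31-fold, from 41.6 ± 2.69 to 54.6 ± 6.12 CPM (adjusted p = 0.0106). Pmm2, the isoenzyme behind the most common congenital disorder of glycosylation in people, fell from 35.1 ± 6.61 to 26.2 ± 0.558 CPM (adjusted p = 0.0212, edgeR). That call was lost without any 1 of the knockout libraries, with adjusted p of 0.0626 without replicate 1, 0.0778 without replicate 2 and 0.0661 without replicate 3. Mpi, which links mannose 6-phosphate to glycolysis, had a log2 fold change of -0.12 with an interval of -0.42 to 0.19 and did not pass (adjusted p = 0.476).

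Dolichol phosphate and its sugar donors. The gene of the enzyme that charges dolichol with glucose rose, and the phosphatase that recycles dolichol fell; the subunits of the mannose-charging enzyme split. Of the 7 genes, 2 rose and 2 fell (28.6% each, against 30.7% and 30.2% of all genes tested). Alg5 makes dolichyl phosphate glucose (gene 66248, chromosome 3, 54735539 to 54749795). It was read at 18.1, 19.7 and 18.7 CPM in wild type and at 34.3, 35.8 and 44.3 CPM in the knockout, with the highest value in replicate 3 and no overlap. The log2 fold change of Alg5 was 1.02 (SE 0.12, 2.03-fold, adjusted p = 6.56e-05, edgeR). Dolpp1, the dolichyl pyrophosphate phosphatase (gene 57170, chromosome 2, 30392254 to 30400529), was read at 12.5, 14.5 and 16 CPM in wild type and 8.58, 9.84 and 9.11 CPM in the knockout. Each knockout library lay below each wild-type one, for a log2 fold change of -0.64 (SE 0.14, 1.56-fold lower, adjusted p = 0.00289, edgeR). Dolpp1 shares 59 exonic bases with Crat on the opposite strand, which had a log2 fold change of -1.21.

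Dolichyl phosphate mannose synthase has the catalytic subunit Dpm1 and the membrane-anchoring subunits Dpm2 and Dpm3. Dpm1 rose from 21.6 ± 1.7 to 29.5 ± 2.92 CPM (log2 fold change 0.45, adjusted p = 0.00704, edgeR), with an overlapping same-strand gene, Gm20716, over 895 of its exonic bases. Dpm3 fell from 14.5 ± 1.18 to 10.8 ± 0.804 CPM (log2 fold change -0.43, adjusted p = 0.0146). Without knockout replicate 2, knockout replicate 3 or wild-type replicate 2 its adjusted p was 0.0542, 0.0687 and 0.0703. Dpm2 had a log2 fold change of -0.26 with an interval of -0.55 to 0.03 and did not pass (adjusted p = 0.105), although it passed with library totals as the only scaling (0.027). The dolichol kinase gene Dolk (-0.09, adjusted p = 0.559) and Mpdu1, needed for the use of the dolichol-linked sugars (0.27, adjusted p = 0.0802), did not pass either.

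Assembly on the cytosolic face. All 6 genes of this step passed the test, 4 rising and 2 falling (66.7% and 33.3%, against 30.7% and 30.2% of all genes tested). The summed level of the step went from 187 ± 2.01 to 245 ± 1.92 CPM, and most of that rise was Alg13, at 36.9 ± 7.33 and 79.5 ± 4.53 CPM. The enzyme that adds the second N-acetylglucosamine is a pair of proteins, the catalytic Alg13 and its membrane anchor Alg14, and their transcripts went opposite ways. Alg13 (gene 67574, chromosome X, 144317966 to 144374450) was read at 32.2, 33.2 and 45.4 CPM in wild type and 82.3, 74.3 and 81.9 CPM in the knockout. Wild-type replicate 3 was the highest of its group but still far below the knockout libraries, and the log2 fold change was 1.11 (SE 0.14, 2.16-fold, adjusted p = 7.47e-05, edgeR). Alg14 (gene 66789, chromosome 3, 121291712 to 121363096) was read at 28.9, 29.2 and 24.0 CPM in wild type and 19.0, 17.4 and 16.4 CPM in the knockout. Its groups did not overlap either, and its log2 fold change was -0.64 (SE 0.12, 1.56-fold lower, adjusted p = 0.00118, edgeR).

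Dpagt1, the tunicamycin-sensitive enzyme that starts the tree, fell from 20.7 ± 1.3 to 16.6 ± 1.57 CPM (log2 fold change -0.31, adjusted p = 0.0412, edgeR). The call was lost without knockout replicate 1 (0.132) or 2 (0.135), and without wild-type replicate 1 (0.0625), 2 (0.0916) or 3 (0.0868). The mannosyltransferases Alg1, Alg2 and Alg11, which add the mannoses of the cytosolic stage, rose by log2 fold changes of 0.32, 0.40 and 0.35 (adjusted p = 0.0287, 0.00836 and 0.00795). With library totals as the only scaling none of the 3 passed (adjusted p = 0.202, 0.0671 and 0.0766), which left Alg13 as the only gene of the step called higher. The Alg1 call was also lost without knockout replicate 1 (0.0548), knockout replicate 2 (0.083) or wild-type replicate 2 (0.073), and Alg1 shares 472 exonic bases with Eef2kmt.

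Assembly in the ER lumen. In this step 3 of the 6 glycosyltransferase genes rose and none fell by the main test, where 30.7% of all genes tested rose and 30.2% fell. The summed level of the step went from 263 ± 5.01 to 310 ± 2.47 CPM. The risers were Alg3, which adds the first of the lumenal mannoses, Alg12, which adds a later one, and Alg8, which adds the second glucose. The sequence just upstream of each is shown, a choice made after the rises were seen. Only Alg12 held a match to the ER stress element, a site read by the unfolded protein response factors ATF6 and XBP1. The stretches are from RefSeq on GRCm38.p6, written 5′ to 3′ on the gene's strand and ending before any annotated exon; they lie at chr16:20610769-20611011 (minus strand, 243 bases, 41.2% G and C), chr15:88819319-88819568 (minus strand, 250 bases, 63.6%) and chr7:97371367-97371566 (plus strand, 200 bases, 61.0%). Capitals mark a match to the ER stress element only. Matches to other elements are not marked, among them an antioxidant response element match (GCCATGTCA) in the Alg12 stretch.
Alg3: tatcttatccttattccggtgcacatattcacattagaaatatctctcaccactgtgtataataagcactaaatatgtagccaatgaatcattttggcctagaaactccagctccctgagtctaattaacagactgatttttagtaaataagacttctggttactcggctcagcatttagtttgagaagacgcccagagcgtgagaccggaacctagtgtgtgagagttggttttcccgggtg
Alg12: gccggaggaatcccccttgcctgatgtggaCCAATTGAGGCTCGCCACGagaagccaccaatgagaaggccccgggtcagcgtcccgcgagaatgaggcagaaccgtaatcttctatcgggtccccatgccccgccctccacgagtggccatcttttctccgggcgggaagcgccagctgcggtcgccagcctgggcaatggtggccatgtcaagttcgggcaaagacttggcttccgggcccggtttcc
Alg8: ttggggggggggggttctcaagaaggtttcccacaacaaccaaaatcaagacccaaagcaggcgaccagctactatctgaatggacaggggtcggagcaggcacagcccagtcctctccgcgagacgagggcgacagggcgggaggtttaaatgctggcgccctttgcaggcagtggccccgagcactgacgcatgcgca

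The element searched was CCAAT, any 9 bases, then CCACG, on either strand, in windows from 250 bases before to 50 after each RefSeq start. The match in Alg12 spans 220 to 202 bases before the start. It was the single match among the 39 of 47 members that have a RefSeq window (2.56%), and 0.137% of the 27025 genes with windows hold one. The unfolded protein response core TGACGTGG (0.714% of genes) and the C/EBP-ATF element TGATGCAAT (0.222%) matched no member, and the cyclic AMP response element TGACGTCA (2.03%) matched Alg13 alone. The antioxidant response element TGACNNNGC, read by NRF1 (the NGLY1 client NFE2L1) and NRF2, was found in 11 members (28.2%, against 14.0% of genes), of which 5 had risen, 3 had fallen and 3 had not passed. The shares of genes are over all 27025 with a window, expressed in these cells or not, where 15039 genes were tested. No share among expressed genes was taken, so no excess among the members can be read from these values. A match describes the letters only and says nothing of binding.

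Alg3 (gene 208624, chromosome 16, 20605458 to 20610761) was read at 7.08, 8.58 and 11.7 CPM in wild type and 16.4, 16.5 and 16.9 CPM in the knockout. The knockout libraries were close together and all above the spread-out wild-type values, for a log2 fold change of 0.87 (SE 0.18, 1.83-fold, adjusted p = 0.0017, edgeR). Alg3 shares 269 exonic bases with Eef1akmt4 and Gm49333 on the opposite strand, neither of which was counted as a gene here. Alg12 (gene 223774, chromosome 15, 88805243 to 88819318) was read at 11.2, 10.1 and 9.4 CPM in wild type and 18.9, 20.4 and 18 CPM in the knockout. Its log2 fold change was 0.90 (SE 0.12, 1.86-fold, adjusted p = 0.00016, edgeR), again with no overlap. Alg8 (gene 381903, chromosome 7, 97371567 to 97392159) was read at 12.2, 11.7 and 15.4 CPM in wild type and 31.1, 34.6 and 37.7 CPM in the knockout. This was the steepest rise among the 47 genes, with a log2 fold change of 1.40 (SE 0.14, 2.64-fold, adjusted p = 1.59e-05, edgeR).

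The other lumenal enzymes did not pass. Alg9, which adds the mannoses before and after that of Alg12, had a log2 fold change of -0.21 with an interval of -0.47 to 0.05 (adjusted p = 0.14), and was called lower with library totals (0.0451). Alg6, which adds the first glucose just before Alg8, had 0.04 with an interval of -0.19 to 0.27 (adjusted p = 0.766). Alg10b, which adds the terminal glucose that the transferase recognises, had 176 ± 2.02 CPM in wild type and 188 ± 4.51 CPM in the knockout (log2 fold change 0.09, adjusted p = 0.34). Per kilobase of transcript, the level of Alg10b in wild type was 26.5 CPM per kb, against 4.81 to 9.34 CPM per kb for the other 5 lumenal enzymes.

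**Figure D2:**
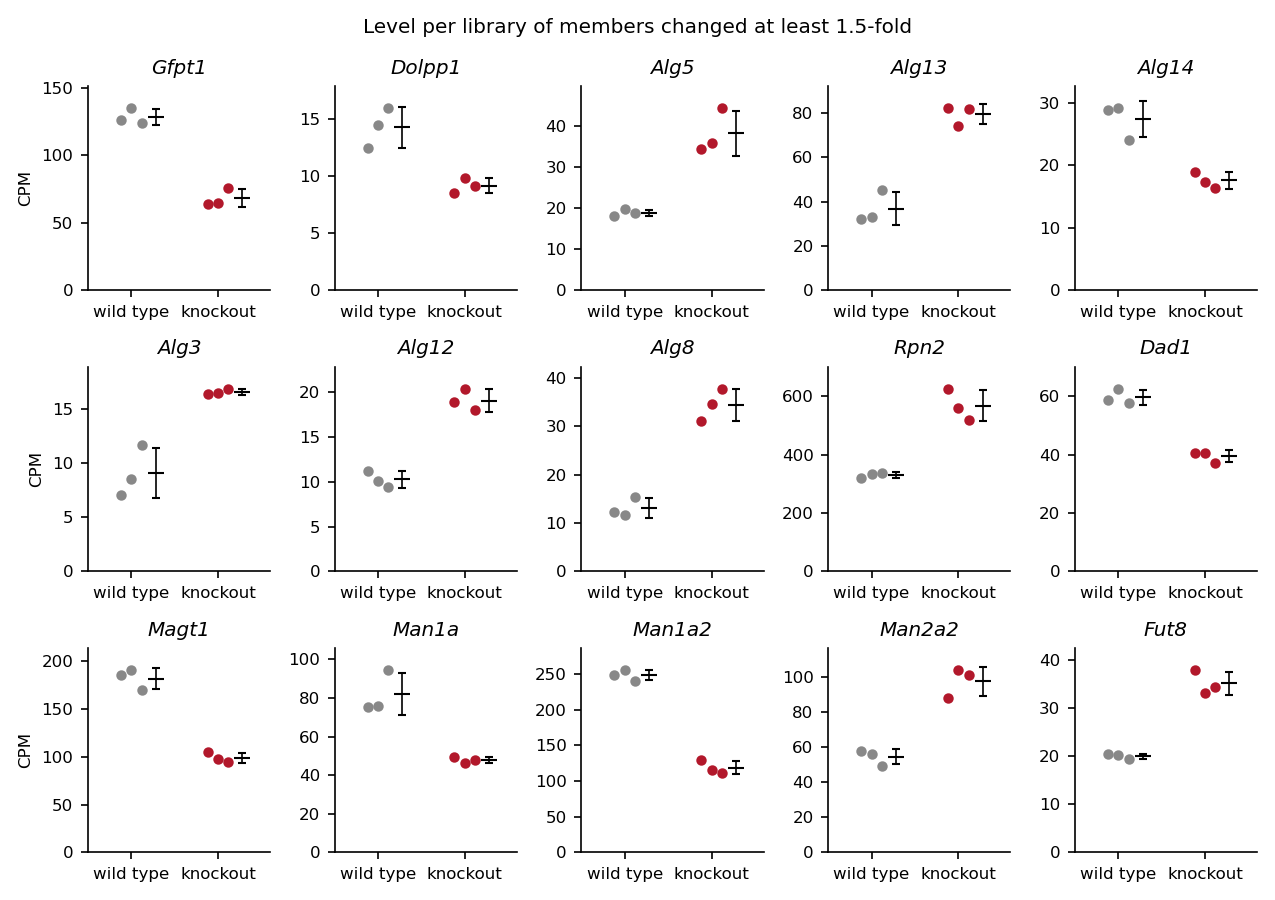
CPM (TMM-scaled, linear axes from 0) in each of the 3 wild-type and 3 NGLY1 knockout libraries for the 15 members that passed the test with at least a 1.5-fold change and no overlap between groups; points are libraries, and the bar beside them marks the group mean ± SD. Each panel shows the knockout points wholly above or wholly below the wild-type points, as for Alg8 with 31.1 to 37.7 against 11.7 to 15.4 CPM.

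Oligosaccharyltransferase. Of the 9 subunit genes of this complex 1 rose and 5 fell (11.1% and 55.6%, against 30.7% and 30.2% of all genes tested). Their sum was 1870 ± 44.8 CPM in wild type and 1860 ± 126 CPM in the knockout. Rpn2, a ribophorin present in every form of the complex (gene 20014, chromosome 2, 157279098 to 157326318), was read at 319, 334 and 337 CPM in wild type and 626, 562 and 521 CPM in the knockout. The lowest knockout value exceeded the highest wild-type value by a wide margin, and the log2 fold change was 0.79 (SE 0.10, 1.73-fold, adjusted p = 8.47e-05, edgeR). Dad1, a small subunit named for the cell death that follows its loss (gene 13135, chromosome 14, 54235485 to 54253929), was read at 58.6, 62.5 and 57.8 CPM in wild type and 40.7, 40.4 and 37.0 CPM in the knockout. Dad1 had a log2 fold change of -0.60 (SE 0.093, 1.51-fold lower, adjusted p = 0.000323, edgeR).

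Magt1 and Tusc3 are alternative oxidoreductase subunits of the STT3B form of the complex, which glycosylates sites that the translocon-bound STT3A form has skipped. Magt1 (gene 67075, chromosome X, 105968084 to 106011802) was read at 186, 191 and 170 CPM in wild type and 105, 97.4 and 94.3 CPM in the knockout. No library overlapped, and the log2 fold change was -0.88 (SE 0.092, 1.85-fold lower, adjusted p = 2.41e-05, edgeR). Tusc3 was read at 66.7, 58.4 and 44.2 CPM in wild type and 83.6, 73.2 and 64.8 CPM in the knockout. Here the groups overlapped, since wild-type replicate 1 lay above knockout replicate 3, and the log2 fold change of 0.39 missed the threshold (adjusted p = 0.0518). It passed in 8 of the 15 alternative analyses, among them those without wild-type replicate 1 (0.0142), without knockout replicate 3 (0.0371) and without both libraries numbered 3 (0.0124). Per kilobase the sum of Magt1 and Tusc3 was 81.6 ± 9.9 CPM per kb in wild type and 72.9 ± 7.52 CPM per kb in the knockout, and Magt1 made up 54.6% of that sum in wild type and 33.1% in the knockout.

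The catalytic subunits moved less. Stt3b fell from 304 ± 0.597 to 247 ± 8.15 CPM (log2 fold change -0.30, adjusted p = 0.011, edgeR), whereas Stt3a, at 388 ± 6.96 and 362 ± 14.9 CPM, did not pass (-0.10, interval -0.29 to 0.09, adjusted p = 0.341). Ddost, a core subunit of every form, fell from 255 ± 13.8 to 206 ± 16.3 CPM (-0.31, adjusted p = 0.0184), and Ostc, the subunit that joins the STT3A form to the translocon, fell too (-0.28, adjusted p = 0.0264). Rpn1, the partner ribophorin, did not pass (-0.10, adjusted p = 0.368). The calls of these smaller falls changed with left-out libraries, while the log2 fold changes stayed negative. These ranged from -0.31 to -0.26 for Stt3b, -0.36 to -0.24 for Ddost and -0.33 to -0.23 for Ostc. Without knockout replicate 2, Stt3b, Ddost and Ostc had adjusted p of 0.0621, 0.0793 and 0.128, without knockout replicate 3 they had 0.0556, 0.0988 and 0.11, and without wild-type replicate 2 they had 0.0575, 0.0891 and 0.134. Without wild-type replicate 1, Ddost had 0.0521 and Ostc 0.0541. The number of subunits called lower was then 2, 2, 2 and 3, with Dad1 and Magt1 among them each time.

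Levels per kilobase put Rpn2 and Ddost level in wild type, at 120 ± 3.55 and 120 ± 6.52 CPM per kb, ahead of Stt3b (72.0), Dad1 (67.9), Stt3a (66.2), Ostc (63.7), Rpn1 (61.9), Magt1 (44.3) and Tusc3 (37.4). In that order Dad1 and Stt3a, Stt3a and Ostc, Ostc and Rpn1, and Magt1 and Tusc3 differed by less than the SD of 1 gene of the pair. In the knockout Rpn2 stood at 207 ± 19.3 CPM per kb and Ddost at 97.2 ± 7.68, while Tusc3 (48.9) lay above Magt1 (24.0). These values use each gene's shortest principal GENCODE transcript. For Dad1 the choice matters: on its longest transcript of 3491 bases instead of 878 its wild-type level was 17.1 CPM per kb.

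**Figure D3:**
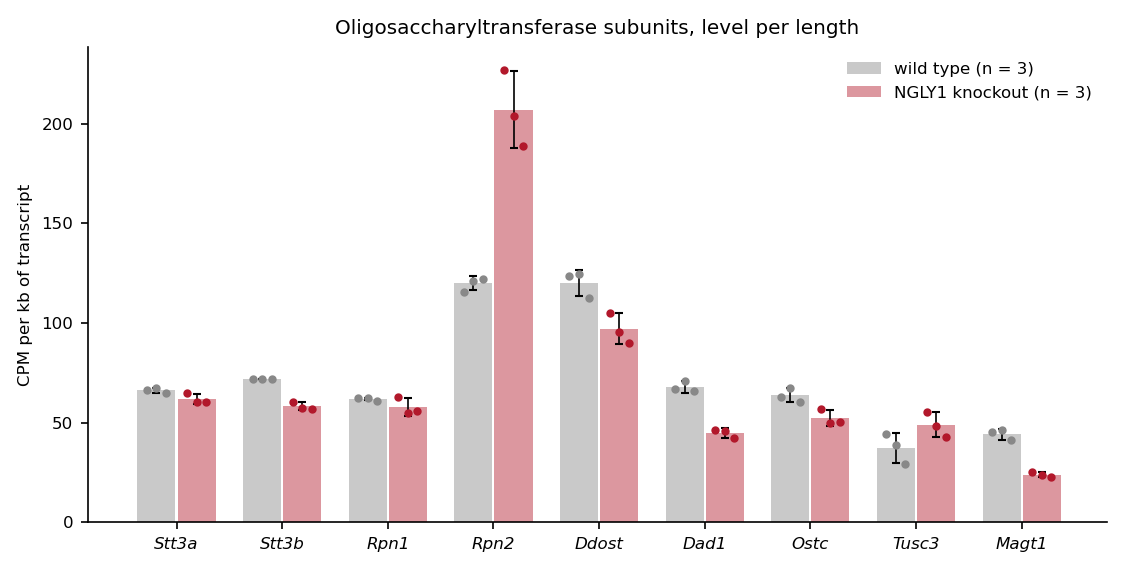
Level of the 9 oligosaccharyltransferase subunit genes in CPM per kilobase of the shortest principal transcript (linear axis from 0); bars are group means with SD and points are the 3 wild-type and 3 NGLY1 knockout libraries. Rpn2 rises from 120 to 207 CPM per kb, and Magt1 drops below Tusc3 in the knockout.

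Glucose trimming and the folding check. Glucosidase I (Mogs) and glucosidase II (catalytic Ganab, regulatory Prkcsh) remove the glucoses, and UGGT puts a glucose back on misfolded glycoproteins so that calnexin and calreticulin hold them longer. Of the 5 genes both UGGT genes rose by edgeR's test (40.0%, against 30.7% of all genes tested) and the other 3 did not pass. Uggt1 went from 264 ± 5.68 to 356 ± 26.9 CPM (log2 fold change 0.43, adjusted p = 0.00251, edgeR) and Uggt2 from 44.8 ± 5.26 to 60.4 ± 5.8 CPM (0.43, adjusted p = 0.00953). Uggt2 shares 220 exonic bases with Gm16835. Mogs, Ganab and Prkcsh had log2 fold changes of 0.22, -0.20 and -0.22 and missed the threshold (adjusted p = 0.0519, 0.0636 and 0.0743). All 3 knockout libraries lay below the wild-type libraries for Ganab and Prkcsh. Both were called lower with library totals (0.00871 and 0.0112) and with a filter of 1 CPM in 3 libraries (0.029 and 0.0433), Ganab also with DESeq2 (0.0352), and without wild-type replicate 3 Mogs (0.031) was called higher.

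Mannose trimming. All 5 mannosidase genes passed, 3 rising and 2 falling (60.0% and 40.0%, against 30.7% and 30.2% of all genes tested). Man1a and Man1a2, Golgi alpha-1,2-mannosidases that trim high-mannose glycans, fell, and the alpha-mannosidases II that act after them rose, as did the ER mannosidase gene Man1b1. Man1c1, a further Golgi alpha-1,2-mannosidase outside the 47 genes, had 18.1 ± 3.54 and 18.4 ± 0.71 CPM and did not pass (log2 fold change 0.02, adjusted p = 0.902, edgeR). Man1a2 (gene 17156, chromosome 3, 100562203 to 100685473) was read at 249, 256 and 241 CPM in wild type and 129, 116 and 112 CPM in the knockout, the steepest fall among the 47 genes. Its log2 fold change was -1.06 (SE 0.092, 2.09-fold lower, adjusted p = 7.08e-06, edgeR). Man1a (gene 17155, chromosome 10, 53904785 to 54076616) was read at 75.4, 75.8 and 94.5 CPM in wild type and 49.5, 46.3 and 47.7 CPM in the knockout. The knockout values were tight and all lower, with a log2 fold change of -0.78 (SE 0.11, 1.71-fold lower, adjusted p = 0.000172, edgeR).

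Man2a2 (gene 140481, chromosome 7, 80349095 to 80371483) was read at 57.9, 56.2 and 49.5 CPM in wild type and 87.8, 104 and 101 CPM in the knockout. Each knockout library lay above each wild-type one, for a log2 fold change of 0.84 (SE 0.10, 1.78-fold, adjusted p = 7.44e-05, edgeR). Its paralogue Man2a1 was read at 127, 133 and 153 CPM in wild type and 209, 188 and 190 CPM in the knockout, which is 1.42-fold higher (log2 fold change 0.50, adjusted p = 0.00165). Man1b1, which also helps mark terminally misfolded glycoproteins for disposal, rose from 110 ± 3.53 to 133 ± 8.12 CPM (log2 fold change 0.27, adjusted p = 0.0203). The Man1b1 call was lost with library totals (0.178) and without wild-type replicate 2 (0.0571).

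Branching and core fucose. The core fucosyltransferase gene rose, 1 of the 4 branching enzyme genes among the members fell and the other 3 did not pass. That is 1 higher and 1 lower of 5 genes, where 30.7% of all genes tested rose and 30.2% fell. Fut8, which adds the fucose on the innermost N-acetylglucosamine (gene 53618, chromosome 12, 77237430 to 77475998), was read at 20.4, 20.2 and 19.5 CPM in wild type and 38, 33.2 and 34.4 CPM in the knockout. The wild-type values lay within 1 CPM of each other, and the log2 fold change was 0.81 (SE 0.10, 1.76-fold, adjusted p = 8.74e-05, edgeR). Mgat5, which starts the beta-1,6 branch, fell from 43.5 ± 3.95 to 33.9 ± 3.06 CPM (log2 fold change -0.36, adjusted p = 0.0175), a call lost without knockout replicate 1 (0.0688) or wild-type replicate 1 (0.0734). Mgat1 and Mgat2, which start the first branches, did not pass, both at 0.11 on the log2 scale (adjusted p = 0.305 and 0.292). Mgat4b had -0.01, with an interval of -0.20 to 0.18 (adjusted p = 0.905). Its paralogue Mgat4a, outside the 47 genes and read at a low level, had 92, 99 and 40 counts in wild type and 2, 6 and 0 in the knockout (adjusted p = 0.000158, edgeR).

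The 15 members with at least a 1.5-fold change and no overlap (31.9% of the members, against 44% of all genes tested, and 44.6% where overlap was allowed) kept their call and direction in each of the 15 alternative analyses, which included leaving out each library. Of the 16 smaller calls, 11 were lost in at least 1 alternative. The 15 were picked from the same counts for their size and separation, which favours their keeping the call. The rate among other genes picked in that way was not taken.

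Pairs of related enzymes were compared within each library, where the ratio of their counts does not depend on scaling. In the exact permutation test of 3 against 3 libraries the smallest possible two-sided p is 0.1, which is 0.175 after Benjamini-Hochberg adjustment over the 7 pairs here, so no pair could pass 0.05. The Magt1 to Tusc3 ratio was 2.79, 3.27 and 3.83 in wild type and 1.25, 1.33 and 1.46 in the knockout, a difference of -1.28 on the log2 scale with no overlap (exact p = 0.1, adjusted 0.175). The Stt3a to Stt3b ratio was 1.28, 1.30 and 1.26 in wild type and 1.48, 1.46 and 1.47 in the knockout, a small difference of 0.20 that was far larger than the spread within either group (exact p = 0.1, adjusted 0.175). The Pmm1 to Pmm2 ratio went from 1.31, 1.25 and 1.05 to 1.81, 2.18 and 2.27 (log2 difference 0.80, exact p = 0.1, adjusted 0.175). For these pairs the groups did not overlap.

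The Gfpt1 to Gfpt2 ratio moved most: it was 174, 215 and 523 in wild type and 13.1, 17.1 and 14.3 in the knockout, since Gfpt2 itself had 29, 24 and 6 counts in wild type and 166, 123 and 188 in the knockout (log2 difference of the ratio -4.19, exact p = 0.1, adjusted 0.175). The wild-type ratios rest on those few Gfpt2 counts. The Man1a to Man1a2 and Man2a1 to Man2a2 ratios overlapped between groups (log2 differences 0.30 and -0.33, exact p = 0.2 and 0.3). For Uggt1 to Uggt2 the ratio was 5.46, 6.69 and 5.68 in wild type and 5.98, 6.41 and 5.37 in the knockout (log2 difference 0.00, exact p = 1).

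**Figure D4:**
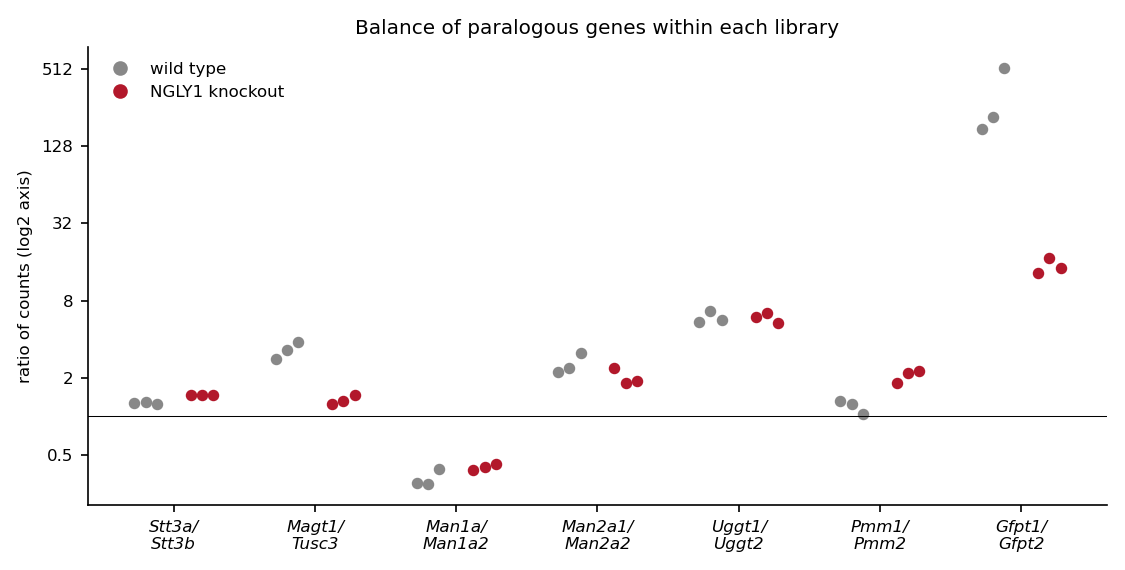
Ratio of the counts of 7 pairs of related genes (log2 axis) in each of the 3 wild-type and 3 NGLY1 knockout libraries; each point is a library and the horizontal line marks equal counts. The groups stand apart for Stt3a/Stt3b, Magt1/Tusc3, Pmm1/Pmm2 and Gfpt1/Gfpt2 and overlap for the other 3 pairs.

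Around the 47 genes, 48 further genes of N-glycosylation were read in the same fit. All 48 were tested, and 12 rose and 19 fell (25% and 39.6%, against 30.7% and 30.2% of all genes tested), with a median log2 fold change of -0.11. The 6 with the smallest p included the next hexosamine enzyme, Gnpnat1, which was read at 18.4, 20.9 and 22.6 CPM in wild type and 135, 118 and 122 CPM in the knockout. The log2 fold change of Gnpnat1 was 2.60 (6.06-fold, adjusted p = 8.1e-08, edgeR), but the gene shares 3376 exonic bases with Styx on the opposite strand, itself at 1.08. Krtcap2, an accessory subunit of the STT3A form, rose 2.32-fold from 46.7 ± 1.04 to 108 ± 5.93 CPM (adjusted p = 2.11e-06), while the small subunits Ost4 and Tmem258 had log2 fold changes of -0.78 and -0.77 and fell. Ost4 shares 651 exonic bases with Agbl5 on the opposite strand, which had -0.91.

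Of the 6, 3 act late in the Golgi, and these fell. Mgat3, which adds the bisecting N-acetylglucosamine, went from 93.0 ± 14.5 to 22.9 ± 3.98 CPM (log2 fold change -2.02, adjusted p = 4.13e-06, edgeR). The sialyltransferase St3gal6 went from 4.11 ± 0.392 to 0.127 ± 0.0685 CPM (-4.98, adjusted p = 2.51e-06), with 1603 exonic bases shared with Dcbld2 on the opposite strand, which did not pass (-0.20). St6gal1, the alpha-2,6-sialyltransferase, went from 2.6 ± 0.33 to 0.157 ± 0.093 CPM (-4.02, adjusted p = 2.72e-05). By sublist, rises and falls numbered 4 and 7 of 14 for Golgi extension and capping and 4 and 4 of 13 for sugar nucleotides. They numbered 0 and 3 of 7 for ER lectins and mannosidases, and 1 and 2 of 4 for the translocon-associated protein complex. Over all genes tested 30.7% rose and 30.2% fell. Among the 3 genes of cytosolic glycan release Engase, a cytosolic endoglycosidase that trims free N-glycans, rose with a log2 fold change of 1.04, and the cytosolic mannosidase gene Man2c1 fell with a log2 fold change of -0.58.

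Fold changes differed between stretches of the genome, with medians per chromosome from -0.45 on chromosome 9 to 0.45 on chromosome 18. Of the 31 members called, 24 (77.4%) had the sign of the median log2 fold change of the other genes within 5 Mb, compared with 5722 of all 8985 called genes with a position (63.7%). This counts signs only: Alg8 and Alg13, for example, had neighbours with medians of 0.04 and 0.02. Rpn2 and Dpm1 on chromosome 2 had neighbours with medians of 0.57 and 0.66, Gfpt1 on chromosome 6 had -0.33 and Magt1 on chromosome X had -0.35. Alg3 rose among neighbours with a median of -0.46, Uggt2 among neighbours at -0.59, Alg5 among neighbours at -0.13, and Dad1 fell among neighbours at 0.10. With genes on chromosomes 2, 6, 9, 13, 16, 18, X and Y left out, a choice made after seeing the data, 11 of the remaining 27 members were called higher and 8 lower, where 58.9% of all genes tested were called. The part of these regional shifts in the members' changes was not tested. Exons of 14 of the 47 members overlap another annotated gene, and whether the deposited counts used strand is not given in the sources used here.

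**Figure D5:**
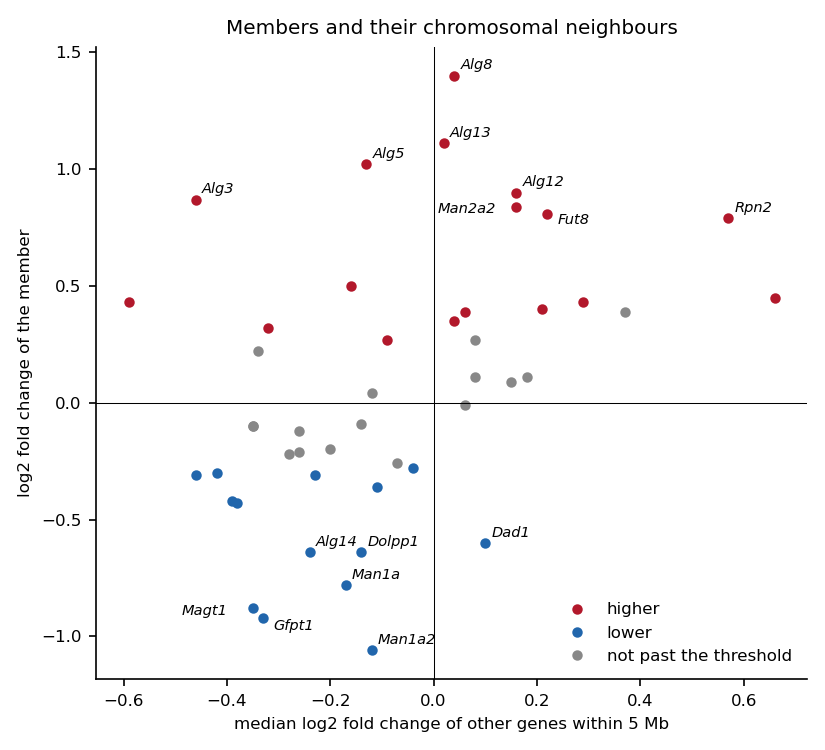
Log2 fold change of each member (vertical axis, NGLY1 knockout over wild type) against the median log2 fold change of the other tested genes within 5 Mb (horizontal axis); red, blue and grey points are members called higher, lower or not. Rpn2 lies far to the right with its neighbours at 0.57, while Alg3, with neighbours at -0.46, lies high on the left.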

How the data were processed

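The authors deposited 1 table of whole-number read counts per gene for the 6 libraries, with symbols and Entrez gene IDs. Reads were aligned with STAR 2.5.1b to mm10, per the submitters' processing notes. Which program counted the reads, on which annotation and with which strand setting, is not given in the sources used here. Counts were filtered with edgeR's filterByExpr, scaled by TMM and tested with edgeR 4.0.16 (robust quasi-likelihood fit, genotype only, R 4.3.3), with Benjamini-Hochberg adjustment over all 15039 genes tested and a threshold of 0.05. The biological coefficient of variation was 15.5%.

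Transcript lengths and exon overlaps came from GENCODE vM21, gene positions and upstream sequences from RefSeq (GRCm38.p6, the same assembly as mm10), for 47 and 39 of the 47 genes. Pair ratios added 0.5 to each count. Library totals limit precision as counting error only.

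Values per library were given for members past the threshold with at least a 1.5-fold change and no overlap, and of the rest of the pathway the 6 genes with the smallest p were to be named, of which 1 is not reported here. Gfpt2, Ost4, Tmem258, Engase, Man2c1, Man1c1 and Mgat4a were named after their values were seen. The members and lists were chosen with earlier results of these data known.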

Additional observations from a re-analysis of the deposited data

How the results depend on the processing

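Of the 31 calls among the 47 genes, 20 held in each of the 15 alternatives (other scaling, filters, tools, the replicate block, left-out libraries), 11 were lost in some and 0 reversed. Without each library in turn, 15 to 19 members were higher and 8 to 13 lower. In these fits 52.5% to 65.9% of all genes tested were called. The fewest lower (8) came without knockout replicate 2, where 25.2% of all genes tested were lower. Omitting wild-type replicate 2 left 9 lower, against 26.3% of all genes tested. Over all alternatives 41.2% to 65.9% of genes tested were called, the lowest share being without the low-count filter. With the genes of chromosomes 2, 6, 9, 13, 16, 18, X and Y left out, which removes members from the list, 11 were higher and 8 lower; of the rest of the pathway 11 were higher and 8 lower of 30 left, against 12 and 19 of 48. Leaving out both libraries numbered 3, structural RNA genes or these chromosomes was chosen after seeing the data.

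The smaller calls moved the counts per step. Without 1 library, genes called lower ranged from 1 to 2 for precursor sugars, 1 to 2 for dolichol donors, 1 to 2 on the cytosolic face, 2 to 5 for the oligosaccharyltransferase, 0 to 1 for glucose trimming and 0 to 1 for branching. With library totals, 1 gene of the cytosolic face was higher, 1 of the ER lumen lower and 2 of glucose trimming lower. Without the low-count filter 1 gene of the cytosolic face was lower; at 1 CPM in 3 libraries 2 genes of glucose trimming were lower, and with DESeq2 1. Without both libraries numbered 3, 1 precursor gene and 1 glucose trimming gene were lower. Oligosaccharyltransferase genes called higher numbered 2 (Rpn2 and Tusc3) without the filter, with DESeq2, with limma-voom, without both libraries numbered 3 and without structural RNA genes, and 1 to 2 without 1 library. The log2 difference of the Uggt1 to Uggt2 ratio ranged from -0.06 to 0.08 without 1 library, at 0.06 on omitting knockout replicate 3 and 0.08 on omitting wild-type replicate 2. The cause of these shifts was not tested.

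The labels number the libraries 1 to 3 in each group without saying what a number marks. For that reason the numbers were not taken as pairs. Deviations of same-numbered libraries correlated at 0.0961, 0.0138 and 0.209, and those of differently numbered libraries at -0.176 to 0.149. These values do not settle whether the numbers mark pairs. With the replicate block 18 members were higher and 14 lower, 2 oligosaccharyltransferase genes were higher (Tusc3 with an adjusted p of 0.00548), and of the rest of the pathway 11 were higher and 19 lower. Members had 257 to 21233 counts in a library, and counting error was not compared with the spread between libraries. Gfpt2, Mgat4a, St3gal6 and St6gal1 rest on few counts in 1 group.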
